A study of Mus musculus with 14 samples.

Results

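Peaks of BMI1 and of ubiquitinated histone H2A (H2AK119ub) were compared in heart cells that had not been exposed to oxidative damage. Each antibody had 3 libraries, labelled Homeostasis BMI1 replicates 1 to 3 and Homeostasis H2AK119ub replicates 1 to 3, and all peaks of these 6 lists were taken. They hold 39615 of the 39832 peaks in the 12 lists of the series, 16605 from BMI1 and 23010 from H2AK119ub. All 6 libraries came from C57BL/6 mice of 6 to 8 weeks that were given PBS, the vehicle, without paraquat, and from heart cells enriched magnetically for the surface antigen Sca1 and against CD45. The 2 input libraries were not used here. The labels describe a culture medium for these cells as well as fixation of the cell suspension after isolation, and do not say whether the fixed cells had been cultured. They do not say either whether replicates are separate mice, so the p-values below refer to the spread among these 6 samples alone, and that spread may be technical. Peak lists carry no expression, so the labelled cell type could not be checked against its markers.

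BMI1 belongs to Polycomb repressive complex 1 (PRC1), in which RING1 or RNF2 (RING1B) is the ligase that attaches a single ubiquitin to a lysine near the end of histone H2A. BMI1-containing PRC1 is known for occupying CpG-rich promoters of silent developmental genes, such as the Hox clusters, and for repressing the Cdkn2a locus, which restrains proliferation. Much of the mark is placed by variant forms of PRC1 that lack BMI1, so the positions of the protein and of the mark need not be the same. Sca1+CD45- heart cells include fibroblast-like, endothelial and progenitor-type cells.

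The sequences under the peaks are shown first for start sites of genes, where a Polycomb protein and its mark could be read against a promoter. RefSeq windows (GRCm38.p6) that run from 250 bases before a start to 50 after it were available for 32851 starts, and 28 of them (0.0852%) held a base of a peak from any of the 6 lists. In 10 windows the peak was present in 2 or more BMI1 lists, in 11 in 2 or more H2AK119ub lists, and in 9 in both. In 5 windows all 6 lists had one, those of Agbl5, Polr3e, Tpcn2 and the lncRNA genes Gm46178 and Gm46404. The windows of 4 genes are printed, each with a tRNA gene or a repetitive stretch under the peak, and they do not stand for all 28. Capitals mark the bases inside the peak of every list that had one. The unprinted windows of Agbl5 and Gm46178 held 1 and 14 such bases. Neither had a tRNA gene in the window or its longest tandem repeat in the peak. Polr3e (chr7:120917528-120917827, plus strand) encodes a subunit of RNA polymerase III, and the capitals fall on a leucine tRNA gene that is annotated in its window. In the window of Gm46404 (chr13:23445922-23446221, minus strand) they fall on a valine tRNA gene. In that of Tpcn2 (chr7:145283962-145284261, minus strand), which encodes an endolysosomal cation channel, they fall on a run of 59 bases of the repeated unit CACT. In that of Lilr4b (chr10:51480362-51480661, plus strand), which encodes an inhibitory receptor of leukocytes, they fall on a GA-rich stretch, with a peak in 3 BMI1 lists and in 2 H2AK119ub lists.
Polr3e: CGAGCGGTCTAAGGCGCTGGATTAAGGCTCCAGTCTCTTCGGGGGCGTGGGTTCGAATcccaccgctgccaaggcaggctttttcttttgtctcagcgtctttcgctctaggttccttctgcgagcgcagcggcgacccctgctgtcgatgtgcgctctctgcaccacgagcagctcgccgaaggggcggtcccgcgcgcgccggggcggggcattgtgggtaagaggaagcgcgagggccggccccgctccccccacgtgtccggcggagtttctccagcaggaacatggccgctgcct
Gm46404: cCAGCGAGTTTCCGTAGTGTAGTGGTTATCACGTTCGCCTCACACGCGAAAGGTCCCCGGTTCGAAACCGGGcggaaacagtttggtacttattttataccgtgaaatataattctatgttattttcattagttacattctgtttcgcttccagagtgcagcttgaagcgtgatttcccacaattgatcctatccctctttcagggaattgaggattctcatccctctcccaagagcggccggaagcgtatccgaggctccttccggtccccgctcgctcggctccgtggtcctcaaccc
Tpcn2: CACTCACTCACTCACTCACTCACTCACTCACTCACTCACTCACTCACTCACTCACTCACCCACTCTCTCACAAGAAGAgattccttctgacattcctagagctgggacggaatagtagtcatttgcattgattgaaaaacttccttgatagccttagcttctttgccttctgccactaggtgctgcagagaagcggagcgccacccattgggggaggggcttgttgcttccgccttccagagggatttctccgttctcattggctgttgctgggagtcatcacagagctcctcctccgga
Lilr4b: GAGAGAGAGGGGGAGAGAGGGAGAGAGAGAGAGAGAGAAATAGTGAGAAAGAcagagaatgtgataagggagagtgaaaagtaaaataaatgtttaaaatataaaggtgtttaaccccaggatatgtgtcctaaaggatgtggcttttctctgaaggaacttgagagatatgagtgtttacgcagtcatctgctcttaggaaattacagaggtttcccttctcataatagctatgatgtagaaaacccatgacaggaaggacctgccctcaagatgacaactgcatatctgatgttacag

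Over the 28 windows, 4 held a tRNA or 5S rRNA gene, against 10 of all 32851 (0.0304%). A perfect tandem repeat of at least 20 bases, with any unit of 1 to 4 bases, was present in 6 of the 28 (21.4%) and in 2.21% of all windows; such a run reads as a repeat on both strands. In all 6 the repeat was inside the peak. The 28 windows belong to 27 genes, since Gm35363 has overlapping windows that both count among the 6. The windows of Gm35363, Gm39254 and Gm46605 had a peak in 1 list alone, of H2AK119ub. Those of Tpcn2 and Gm40204 had one in 6 and 3 lists. The 28 windows had a median of 5 CpG dinucleotides, and all windows a median of 7. Windows with 10 or more CpG made up 43.5% of all windows and 11 of the 28. The 1 annotated microRNA with a peak centre in any list was Mir6236 (chr9:110281353-110281371, plus strand), with a peak of 101 to 105 bp in each of the 6 lists that overlaps its annotated mature form. The mature sequence is shown with its seed (bases 2 to 8) in capitals.
mmu-miR-6236: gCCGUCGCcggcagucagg

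The 6 lists differed more in length within an antibody than between antibodies. BMI1 replicates 1, 2 and 3 held 5020, 7513 and 4072 peaks, and H2AK119ub replicates 1, 2 and 3 held 2000, 13487 and 7523. The longest and the shortest list are both of H2AK119ub, 6.74 times apart. Whether the list of exactly 2000 peaks was shortened to that number is not given in the sources used here. On a log scale the geometric mean of BMI1 was 0.911 times that of H2AK119ub (exact permutation p = 0.9, two-sided). With 3 libraries against 3 the test cannot give a p under 0.1. Of the peaks, 95.0 to 98.0% had a width of 101 bp, and the share of wider ones was 2.35%, 3.82% and 4.52% for BMI1 and 2.00%, 5.03% and 4.28% for H2AK119ub. The score column has a single value in every list, so neither height nor enrichment separates strong from weak peaks, and sequencing depth is unknown.

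Replicate 1 of both antibodies stood apart on the X chromosome. In the 5 Mb window from 30 to 35 Mb, BMI1 replicates 1, 2 and 3 held 55, 0 and 1 peaks and H2AK119ub replicates 1, 2 and 3 held 25, 3 and 1. In the window from 0 to 5 Mb the numbers were 24, 2 and 2 for BMI1 and 21, 3 and 1 for H2AK119ub. Peaks of H2AK119ub replicate 1 overlapped one of BMI1 replicate 1 in 0 of 25 cases in the first of these windows and in 2 of 21 in the second, so the libraries shared the windows and seldom the positions. Of 29 protein-coding genes in the 30 to 35 Mb window, 17 belong to the Btbd35f family and 3 to the Spin2 family, which are multicopy families; of 15 in the 0 to 5 Mb window, 11 are Btbd35f genes. How reads that match several copies were placed is not given in the sources used here, and its part in these values was not tested.

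Where the peaks lay relative to genes did not separate the antibodies. Protein-coding genes held 32.2%, 33.6% and 33.2% of BMI1 peak centres and 31.4%, 33.8% and 33.4% of H2AK119ub peak centres, against 38.2% of the span of the chromosomes that these genes cover. Genes of any class held 44.0%, 44.2% and 46.2% of BMI1 centres and 47.1%, 44.0% and 44.6% of H2AK119ub centres (46.1% of the span). In both measures the groups overlapped, and the means differed by 0.14 percentage points (exact permutation p = 0.9) and by -0.42 percentage points (exact permutation p = 0.6), BMI1 minus H2AK119ub. Peak centres within 1 kb of a protein-coding start made up 1.33%, 1.25% and 1.79% with BMI1 and 1.82%, 1.09% and 1.20% with H2AK119ub, around the 1.43% of the span that such positions take (difference 0.082 percentage points, exact permutation p = 0.6). In the narrower window used for the sequences above, the shares were 0.031% to 0.10% of peaks, each below the 0.229% of the span. No measure of peak number, width or position passed, with adjusted p = 0.9 in each of 8 exact permutation tests. The starts come from a table that holds 79.9% of protein-coding genes. Counting both ends of every protein-coding gene, an alternative chosen after the data were seen, gave 2.27 to 2.64% with BMI1 and 2.23 to 2.76% with H2AK119ub.

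**Figure D1:**
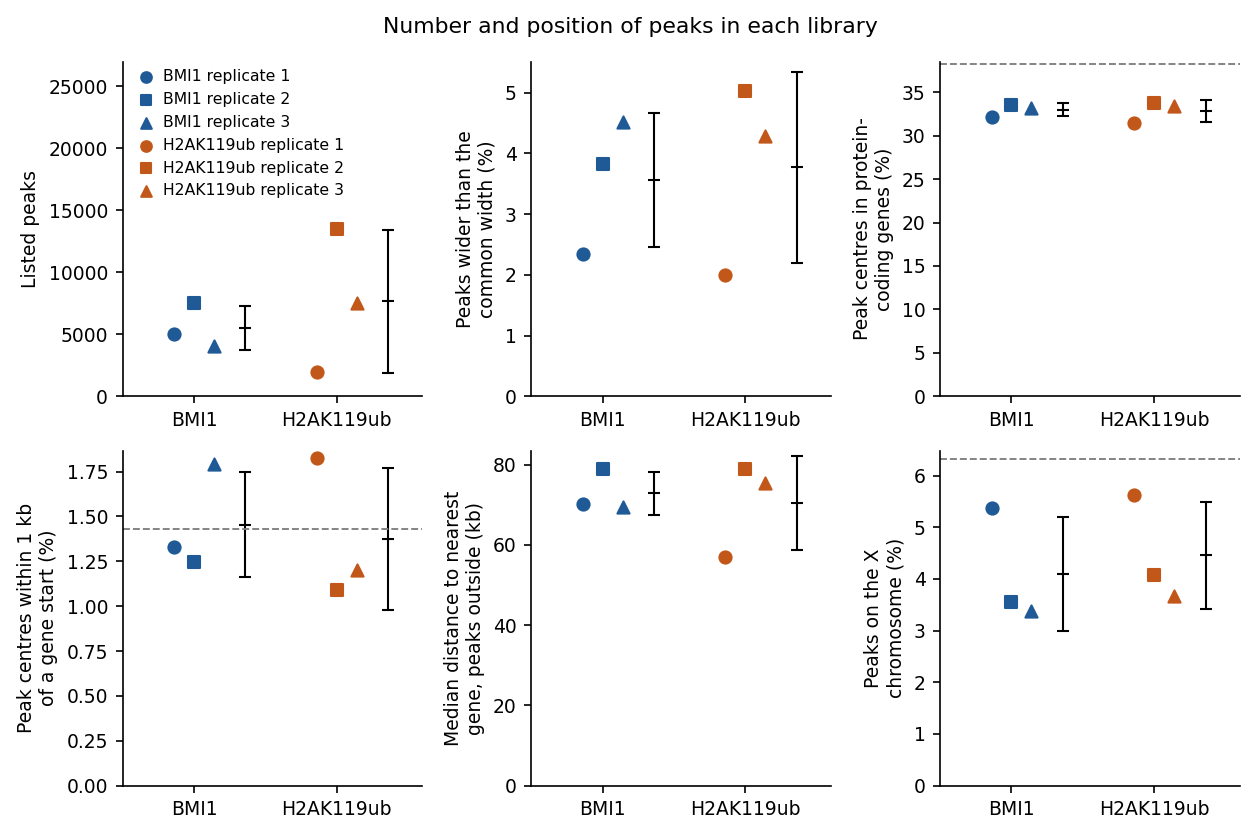
Each panel plots 1 measure (y axis) for the 3 libraries of each antibody; bars give mean ± SD, and dashed lines the share of the chromosome span that the feature covers. H2AK119ub holds both the longest and the shortest list (13487 and 2000 peaks), the groups overlap in every panel, and both replicate 1 libraries lie highest on the X chromosome (5.36% and 5.63%).

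For peaks outside protein-coding genes, the median distance to the nearest one was 70.1, 79.0 and 69.3 kb with BMI1 and 57.1, 78.9 and 75.4 kb with H2AK119ub. The difference of 2.33 kb between means was smaller than its standard error of 7.44 kb (exact permutation p = 0.8). H2AK119ub replicate 1, the shortest list, was closest to genes. Divided into 5 classes of distance, peaks over 500 kb from any protein-coding gene were the 1 class in which the groups did not overlap. They made up 8.15 ± 0.131% with BMI1 and 7.90 ± 0.162% with H2AK119ub (SD, n = 3 each; exact permutation p = 0.1, the smallest possible, adjusted p = 0.5 over the 5 classes), a gap of 0.253 percentage points.

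Genes for tRNA and 5S rRNA, which RNA polymerase III transcribes, stood out among the gene classes. BMI1 lists had 80, 95 and 108 peak centres in tRNA genes and H2AK119ub lists had 89, 111 and 118, a range of 1.48 times where list length varied 6.74 times. In rRNA genes, of which 52 of 63 are 5S copies, the numbers were 37, 42 and 44 with BMI1 and 39, 45 and 42 with H2AK119ub (1.22 times). Protein-coding genes instead followed list length, with 1608, 2514 and 1348 BMI1 centres and 625, 4539 and 2506 H2AK119ub centres (7.26 times). As a share of its list, tRNA genes therefore reached 4.47% in H2AK119ub replicate 1 and 0.826% in H2AK119ub replicate 2, the extremes of all 6. Of 408 tRNA genes, 94 had a BMI1 peak in 2 or more lists, 105 an H2AK119ub peak and 88 both, and 59 had a peak in all 6 lists. Of 52 genes for 5S rRNA the numbers were 37, 36, 36 and 23. No tRNA or 5S gene had a peak in all 3 lists of one antibody and in none of the other.

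**Figure D2:**
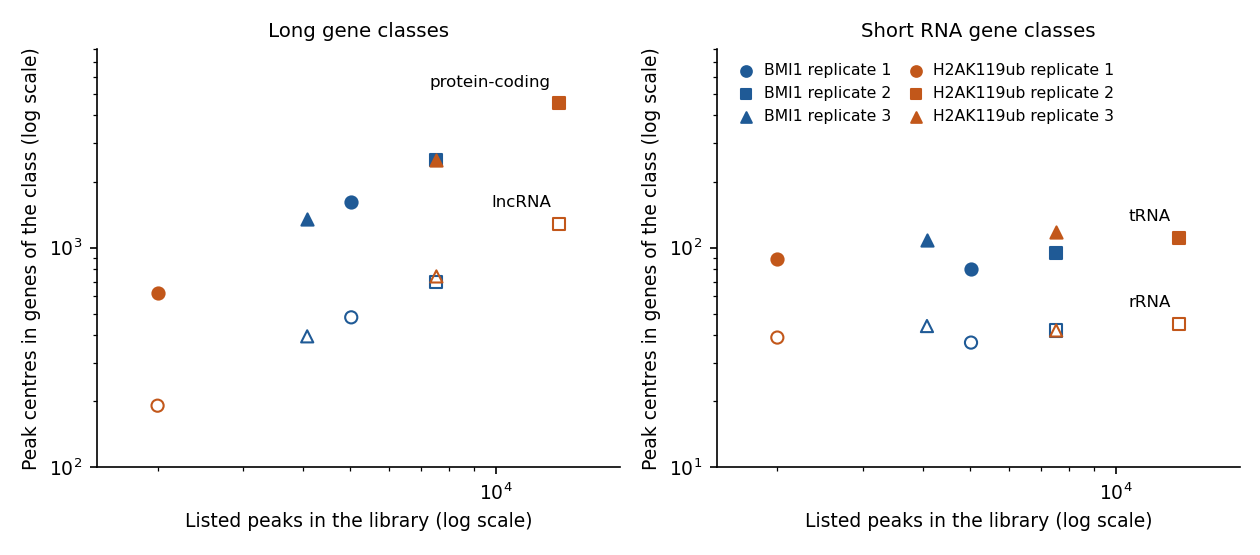
Peak centres in genes of a class (y axis, log scale) against the number of peaks in the list (x axis, log scale), 1 point per library; filled and open symbols are the upper and lower class named in each panel. Numbers in protein-coding and lncRNA genes rise with list length, while those in tRNA genes stay between 80 and 118 and those in rRNA genes between 37 and 45, for both antibodies.

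The other classes gave no difference either. Peak centres in lncRNA genes made up 9.56 ± 0.241% with BMI1 and 9.67 ± 0.167% with H2AK119ub, and those in pseudogenes 0.810 ± 0.0889% and 0.973 ± 0.463% (SD, n = 3 each). The class of miscellaneous RNA genes, with 1 to 9 peaks per list, was the 1 class whose libraries did not overlap, at 0.0740 to 0.0801% with BMI1 and 0.0503 to 0.0670% with H2AK119ub (exact permutation p = 0.1). After adjustment over the 10 classes with a peak, p = 1 for each by the exact permutation test. No peak centre of any list fell in a snoRNA gene or in an immunoglobulin or T cell receptor V segment. Counted by overlap instead of centres, 1 snoRNA gene had a peak in each list but BMI1 replicate 3. V segments are counted here as single genes, not as whole receptor loci.

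The shares of peaks per chromosome did not separate the antibodies. A limma fit of the log2 share per Mb called 0 of 21 chromosomes (0% of those tested; 1 at an unadjusted p under 0.05). Chromosome 16 was the 1 chromosome (4.76% of those tested) whose libraries did not overlap, with 3.78%, 3.77% and 3.99% of BMI1 peaks and 2.96%, 3.59% and 3.61% of H2AK119ub peaks. Its log2 difference was 0.19 ± 0.08 (SE; limma adjusted p = 0.42). Chromosome 17 leaned the other way, with a log2 difference of -0.15 ± 0.08 (limma adjusted p = 0.63) and overlapping libraries. The X chromosome held 5.36%, 3.55% and 3.38% of BMI1 peaks and 5.63%, 4.08% and 3.66% of H2AK119ub peaks, all below its 6.31% of the span. Without the windows in which replicate 1 stood apart, an alternative chosen after the data were seen, the shares were 3.84%, 3.53% and 3.31% with BMI1 and 3.40%, 4.04% and 3.64% with H2AK119ub, so that replicate 1 was the highest of the BMI1 lists and the lowest of the H2AK119ub lists.

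**Figure D3:**
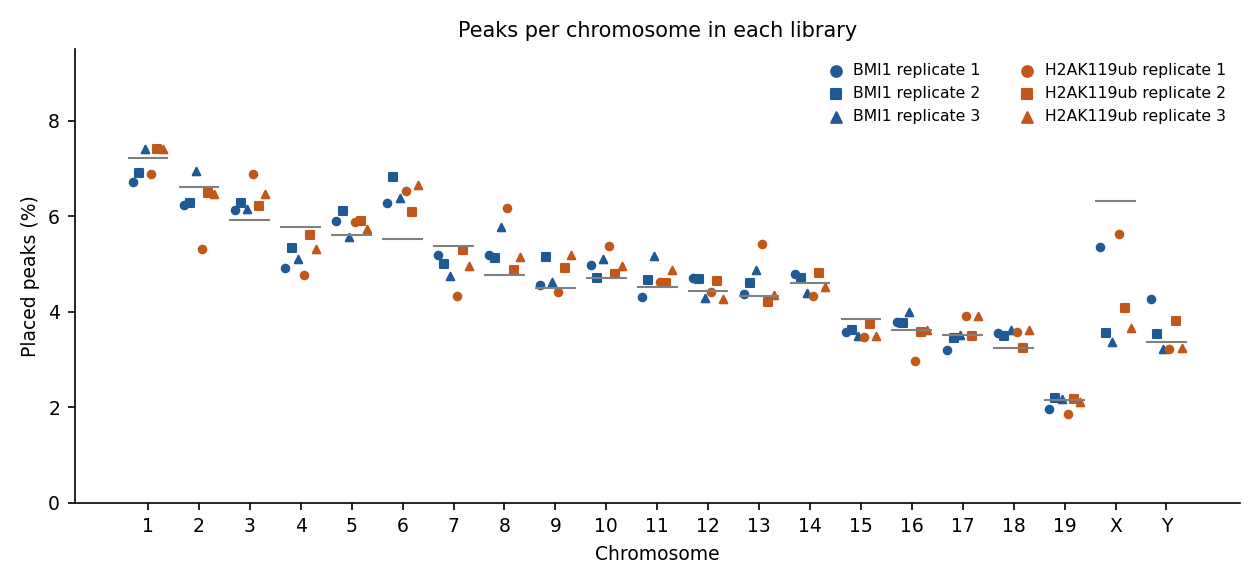
Share of placed peaks (y axis) on each chromosome (x axis) in the 6 libraries, with a grey line at the chromosome's share of the span. The libraries of both antibodies mix on every chromosome but 16, where BMI1 lies at 3.77 to 3.99% and H2AK119ub at 2.96 to 3.61%, and on the X chromosome both replicate 1 libraries lie above the rest.

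In windows of 5 Mb, limma called 0 of 556 (0%; 13 at an unadjusted p under 0.05). The densest window was that of the 5S rRNA gene cluster on chromosome 8 (120 to 125 Mb), with 47, 53 and 53 BMI1 peaks and 43, 64 and 55 H2AK119ub peaks. The next was on chromosome 13 (20 to 25 Mb), which holds 104 tRNA genes, with 24, 37 and 31 BMI1 peaks and 29, 57 and 40 H2AK119ub peaks. Across windows, the pair with the closest profiles was BMI1 replicate 2 with H2AK119ub replicate 3 (Pearson r = 0.89), and the least alike was H2AK119ub replicate 1 with H2AK119ub replicate 2 (r = 0.45). These correlations are across 556 windows and describe the lists, whose lengths bear on them.

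Overlap of peaks did not separate pairs of one antibody from pairs of different antibodies. In each pair of lists, the share of peaks of the shorter list that a peak of the longer one overlapped by at least 1 bp was taken. Over the 6 pairs of one antibody it was 75.5 ± 9.51%, and over the 9 pairs of BMI1 with H2AK119ub 76.2 ± 6.76% (SD over pairs that share libraries; exact permutation over libraries, p = 0.9). BMI1 lists overlapped each other at 60.9 to 79.5%, H2AK119ub lists each other at 81.6 to 83.0%, and lists of different antibodies at 65.1 to 83.8%. Where peaks overlapped, the median offset of their centres was 5 to 7 bp in every pair, whichever the antibodies. As shared regions out of all regions of a pair, the highest value of the 15 pairs was 50.2%, for BMI1 replicate 2 and H2AK119ub replicate 3.

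**Figure D4:**
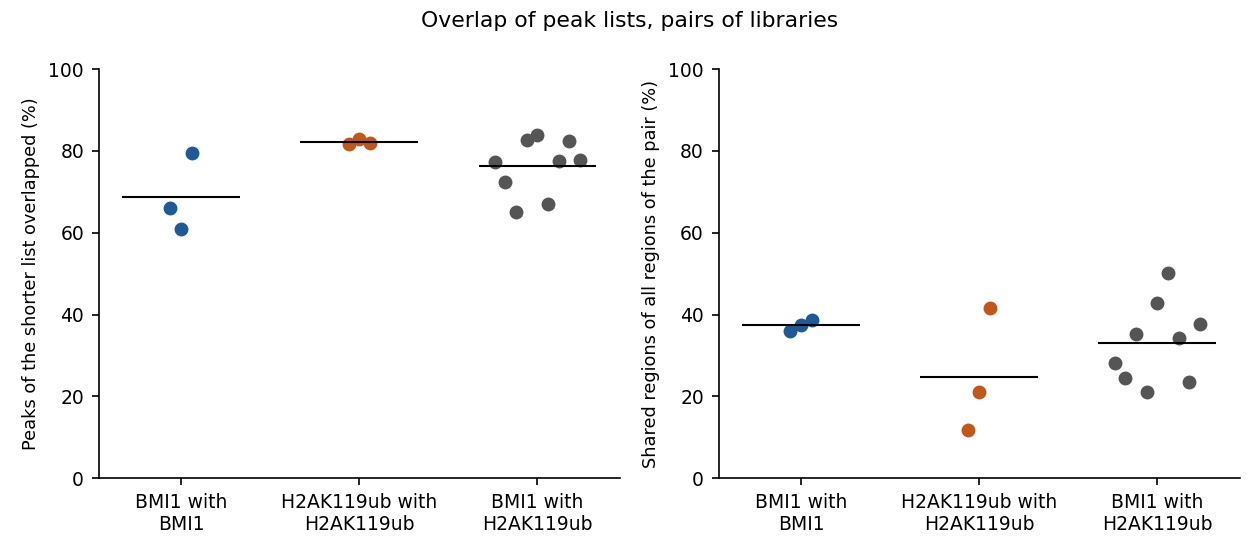
Each point is a pair of libraries, and lines are means. The left panel gives the peaks of the shorter list that overlap a peak of the longer, and the right panel the shared regions as a share of all regions of the pair; pairs of different antibodies span 65.1 to 83.8% on the left and include the highest pair on the right (50.2%).

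That pair also offers a comparison at nearly equal list length, 7513 and 7523 peaks. The lists shared 5026 peaks (66.9%). BMI1 replicate 2 had a peak in or within 5 kb of 2247 protein-coding genes and H2AK119ub replicate 3 of 2273, and 1746 genes were common, 77.7% of the first and 76.8% of the second. Of the 2774 genes with a peak in either, 1413 had the same number of peaks in both, and no gene differed by more than 4. Over all libraries, the number of genes reached depended on list length, with 1637, 2247 and 1413 genes for BMI1 and 727, 3651 and 2273 for H2AK119ub. In a draw of 2000 peaks from each list the expected numbers were 729, 728 and 755 for BMI1 and 727, 746 and 737 for H2AK119ub, with overlapping groups (exact permutation p = 1).

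Few regions had a peak in all 3 lists of one antibody and in none of the other. Merged over the 6 lists, the peaks formed 17310 regions, of which 8670 were in 1 list and 1243 in all 6. At least 1 BMI1 list held 9746 of them, at least 1 H2AK119ub list 15020, and both antibodies 7456. Of the 1918 regions in exactly 3 lists, 7 were in all 3 of BMI1 and none of H2AK119ub (0.365%), and 16 in all 3 of H2AK119ub and none of BMI1 (0.834%). The other regions in 3 lists held 1447 with 1 BMI1 list and 2 H2AK119ub lists, and 448 with the reverse. None of these numbers of regions is scaled to list length. The longest lists (13487 and 7523 peaks) and the shortest (2000) are all of H2AK119ub, and the part of list length in these numbers was not tested. The BMI1 regions lay inside Mapt, which encodes the microtubule protein tau (chr11:104285073-104285183), inside Casd1, a sialic acid O-acetyltransferase gene (chr6:4639766-4639867), inside the pseudogene Mup-ps12, and nearest to Zfr, Nr4a2, Fgf14 and Bcor. The H2AK119ub regions lay inside Otc, the urea cycle enzyme ornithine transcarbamylase (chrX:10302075-10302190), Enox2 (chrX:49159173-49159285), Plekha5, Cdc27, Tmem178, Elapor2 and 1 further gene. The other 9 lay outside genes, nearest to Aff3, Gm10476, Fgf14, Kcnk9, Tafa5, Ttll7, Slc44a1, Insig1 and Fam181b.

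Several of these regions had the other antibody close by. A peak of the other antibody lay within 1 kb of 2 of the 7 BMI1 regions and of 9 of the 16 H2AK119ub regions, at a gap as small as 12 bp near the Cdc27 region. About 124 kb from Fgf14, a fibroblast growth factor gene, a BMI1 region (chr14:124801749-124801850) and an H2AK119ub region (chr14:124801917-124802060) were neighbours with 66 bp between them. The BMI1 region 100 kb from Bcor, a corepressor gene of a variant PRC1, had an H2AK119ub peak 143 bp away. With peaks within 1 kb merged into new regions, 6 regions had a peak in all 3 BMI1 lists and no other, and 8 in all 3 H2AK119ub lists and no other. None of the 23 lay on a tRNA or 5S rRNA gene.

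Gene by gene, no difference in the number of peaks passed. Peaks in or within 5 kb of a protein-coding gene were expressed per 1000 peaks of the list, and 2021 genes with a peak in 3 or more lists were fitted with limma on log2(value + 0.5), a scale that understates the change of genes with few peaks. None passed an adjusted p of 0.05 (0% of genes tested), and 19 had an unadjusted p under 0.05. The 95% interval of a gene reached 0.44 to either side of its difference at the median. Without H2AK119ub replicate 1, limma called 4 genes, all with more H2AK119ub peaks. Among them were Dmd, which encodes dystrophin, Car10, a carbonic anhydrase-related protein, and Dpp10, a potassium channel auxiliary protein. In Dmd, BMI1 lists held 1, 1 and 0 peaks and H2AK119ub lists 0, 6 and 5, so H2AK119ub replicate 1 was as low as BMI1 (limma adjusted p = 0.0027 without that library and 0.96 with it). In Car10 the numbers were 0, 0 and 1 for BMI1 and 0, 7 and 3 for H2AK119ub, and in Dpp10 3, 8 and 0 and 0, 15 and 10.

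Genes whose libraries did not overlap are given as a description. BMI1 lists were all above H2AK119ub lists in 240 of the 2021 genes (11.9%), and the reverse held in 17 (0.841%). Of the 240, 237 had no peak in H2AK119ub replicate 1, where 65.8% of all fitted genes had none, and in 226 an H2AK119ub list held at least as many peaks as any BMI1 list. A single peak is worth 0.5 per 1000 in H2AK119ub replicate 1 and 0.0741 in H2AK119ub replicate 2. By number of peaks, with no scaling, BMI1 lists were above in 2 genes and H2AK119ub lists in 4. The largest BMI1 difference was that of Gm40847, a predicted gene, with 4, 5 and 2 BMI1 peaks and 0, 6 and 3 H2AK119ub peaks (log2 difference 0.61 ± 0.30, SE). Slc12a8, a solute carrier gene, had 2, 2 and 1 BMI1 peaks and 0, 2 and 0 H2AK119ub peaks (0.55 ± 0.24). Gphn, which encodes the receptor scaffold gephyrin, had 2, 1 and 2 and 0, 1 and 1 (0.54 ± 0.25). Celf2, an RNA-binding splicing regulator, had 5, 5 and 6 and 1, 8 and 5 (0.48 ± 0.26). Shisa6, Gm1988, Xpr1, Ncald and Gramd1b were also among the 10 largest, and all 10 had a limma adjusted p of 0.96.

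Toward H2AK119ub, the largest difference was that of Sntg1, a syntrophin gene, with 0, 1 and 0 BMI1 peaks and 1, 3 and 2 H2AK119ub peaks (log2 difference -0.60 ± 0.24). Enox2 followed with 0 in each BMI1 list and 1, 2 and 1 in the H2AK119ub lists (-0.57 ± 0.21), then Otc and Veph1, with 0 in each BMI1 list and 1 in each H2AK119ub list. Fut10, Ankfn1, Plekha5, Ptprn2 and Dscaml1 were also among the 10 largest, and the limma adjusted p was 0.96 for all 10. Over all 21887 protein-coding genes, 559 had a peak in all 6 lists. Mapt and Casd1 had a peak in each BMI1 list and in none of H2AK119ub, and Otc, Veph1 and Enox2 the reverse.

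**Figure D5:**
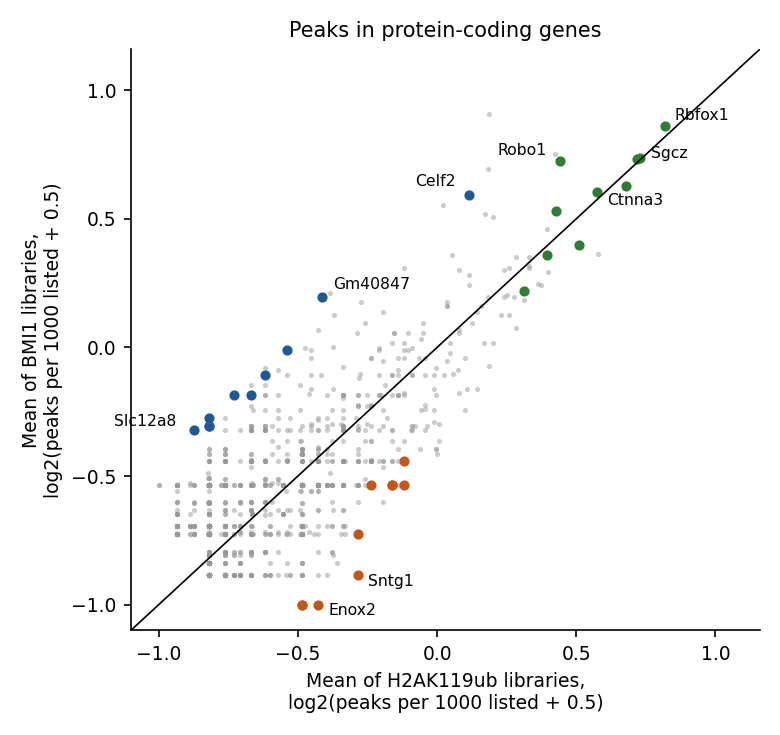
Mean log2(peaks per 1000 listed peaks + 0.5) of 2021 protein-coding genes in the BMI1 libraries (y axis) and the H2AK119ub libraries (x axis); the line marks equality. Blue and orange points are the 10 genes with the largest difference in either direction among those whose libraries do not overlap, and green points are the 10 genes with the highest lowest value over the 6 lists, a choice that itself takes genes near the line.

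The genes densest in every list are given as a description, since a choice by the lowest of 6 lists takes genes that are high with both antibodies. The 10 with the highest value in their lowest list were Rbfox1, Gpc6, Ctnna3, Ppargc1a, Sgcz, Robo1, Dcc, Inpp4b, Ntm and Rora, of 662 to 1574 kb. Their log2 differences ran from -0.11 to 0.28. Rbfox1, a neuronal and muscle splicing regulator, had 7, 10 and 5 BMI1 peaks and 3, 15 and 9 H2AK119ub peaks, which is 1.39, 1.33 and 1.23 per 1000 listed peaks against 1.5, 1.11 and 1.20. Gpc6, a glypican that binds growth factors at the cell surface, had 5, 7 and 5 and 3, 11 and 8. Inpp4b, a phosphoinositide phosphatase gene, had 4, 7 and 3 and 3, 10 and 5. Rora, a nuclear receptor of the circadian clock, had 3, 5 and 3 and 2, 8 and 5. Robo1, a receptor for Slit proteins, showed the widest gap of the 10, with 4, 8 and 7 BMI1 peaks and 2, 9 and 7 H2AK119ub peaks (0.28 ± 0.22).

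Among Polycomb genes, those of the core ligase had no peak. Bmi1 (chr2:18677018-18686629), Ring1 (chr17:34020792-34024680), Rnf2 (chr1:151469398-151500991) and Cdkn2a (chr4:89274473-89294619) had 0 peaks in or within 5 kb in each of the 6 lists. The same held for 17665 of all 21887 protein-coding genes, so a lack of peaks does not set these genes apart. Members of each list are counted with a peak in 2 or more of 3 lists of an antibody, which 7.34% of all protein-coding genes had with BMI1 and 9.63% with H2AK119ub. Of 43 Polycomb subunits, 4 had a BMI1 peak and 6 an H2AK119ub peak, and the 4 were among the 6. Auts2, of a variant PRC1, had 5, 4 and 2 BMI1 peaks and 2, 8 and 4 H2AK119ub peaks. Jarid2, a cofactor of Polycomb repressive complex 2, had 2, 2 and 3 and 1, 2 and 2. Bcor had 1 peak in each of the 6 lists, and Ezh2, the methyltransferase of that second complex, 1 in each list but H2AK119ub replicate 1.

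Hox genes and developmental transcription factors are known to be silenced by Polycomb complexes. With 5 kb on either side counted, 2.56% and 7.14% of their members had a peak, the same share for each antibody. Of 39 Hox genes, 1 had a BMI1 peak and 1 an H2AK119ub peak, the same gene, Hoxb1, with 1, 1 and 0 and 0, 1 and 1 peaks. Of 70 developmental transcription factors, 5 had a peak with each antibody and 4 with both. Gsx2, a homeobox factor of the forebrain, had 1, 1 and 1 BMI1 peaks and 0, 1 and 1 H2AK119ub peaks. Wt1, a factor of the epicardium, had 0, 1 and 1 and 0, 1 and 1. In gene bodies alone, 0 Hox genes had a peak with either antibody. Of the developmental factors, 1 (1.43%) then had one with BMI1 and 2 (2.86%) with H2AK119ub. Over all protein-coding genes those shares were 5.72% and 7.46%. None of 22 genes of the INK4, Rb and p53 pathways had a peak in 2 lists of either antibody; Ccnd3 and Cdk6, a cyclin and its kinase, had 3 peaks each in H2AK119ub replicate 2, the longest list, and 0 in the other 5. Of 32 cardiac and mesodermal factors, 3 had a peak with each antibody, the same 3. Mef2c, a factor of heart development, had 1, 1 and 1 and 0, 3 and 2 peaks, and Meis1, which restrains the cardiomyocyte cell cycle, 1, 1 and 1 and 0, 2 and 1.

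Markers of heart cell types were read for both antibodies in the same way, beside 7.34% (BMI1) and 9.63% (H2AK119ub) of all protein-coding genes. Of 26 stromal and fibroblast genes, 3 had a BMI1 peak and 2 an H2AK119ub peak; Pdgfra, a growth factor receptor of cardiac fibroblasts, had 1, 1 and 1 and 1, 2 and 1 peaks, and Dcn, the matrix proteoglycan decorin, 1, 1 and 1 and 0, 1 and 1. Endothelial genes had 6 of 24 members with a peak, the same 6 with both antibodies (25%). Their median gene length was 32.4 kb, and that of the stromal and fibroblast genes 36.0 kb. With a peak asked for in all 3 lists, 12.5% of endothelial genes had one with each antibody. Over all protein-coding genes that share was 4.45% with BMI1 and 2.92% with H2AK119ub. Erg, an endothelial transcription factor, had 1, 1 and 1 BMI1 peaks and 0, 2 and 1 H2AK119ub peaks, and Vwf, von Willebrand factor, 0, 1 and 1 and 1, 2 and 1. Of 17 smooth muscle and pericyte genes 3 had a peak, the same 3 with both antibodies, Mylk, Tpm2 and Myh11. Of 30 cardiomyocyte genes, 5 had a BMI1 peak and 4 an H2AK119ub peak. Ryr2, the calcium release channel of the heart, had 2, 2 and 1 and 2, 3 and 2 peaks, and Sgcd, a sarcoglycan, 1, 2 and 1 and 1, 4 and 2. Leukocyte genes had 2 of 23 members with a peak, Ikzf1 and S100a9, with both antibodies.

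Long neuronal genes had the highest share of members with a peak among the 14 lists. Of 44 synaptic adhesion genes with a median length of 729 kb, 26 had a BMI1 peak (59.1%) and 29 an H2AK119ub peak (65.9%), and all 26 were among the 29; protein-coding genes have a median length of 17.2 kb. With a peak asked for in all 3 lists of an antibody, the order of the antibodies was the reverse, 22 genes with BMI1 and 13 with H2AK119ub. Opcml, a neural adhesion protein, had 4, 6 and 3 BMI1 peaks and 1, 12 and 6 H2AK119ub peaks. Lrrc4c, a postsynaptic ligand, had 5, 6 and 4 and 1, 9 and 6. Of 36 glutamate and GABA receptor genes (median 231 kb), 15 had a BMI1 peak and 17 an H2AK119ub peak, 14 of them with both. Asked for in all 3 lists, a peak was present in 12 with BMI1 and 7 with H2AK119ub. Grm7, a metabotropic glutamate receptor, had 3, 4 and 2 BMI1 peaks and 1, 6 and 2 H2AK119ub peaks. The lowest of the 14 lists was that of the INK4, Rb and p53 pathways, with 0 of 22 for each antibody at a median of 21.0 kb. Shares were also low in short genes. Ribosomal protein genes (median 3.62 kb) had 0 and 1 of 46 members with a peak, for BMI1 and H2AK119ub. Olfactory receptor genes, a family outside the 14 lists, had 21 and 32 of 1106 (1.90% and 2.89%).

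Of 32 redox genes, 3 (9.4%) had a peak in 2 or more lists, the same 3 with both antibodies. Over all protein-coding genes the share was 7.34% with BMI1 and 9.63% with H2AK119ub. Ppargc1a, a coactivator of mitochondrial biogenesis, had 6, 8 and 5 BMI1 peaks and 4, 10 and 7 H2AK119ub peaks. Sod3, the extracellular superoxide dismutase, had 1, 1 and 2 and 3, 1 and 2, and Cat, which encodes catalase, 1, 1 and 1 and 0, 1 and 1.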

How the data were processed

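Chromatin immunoprecipitation and sequencing gave 1 peak list per library, of which the 6 Homeostasis lists were analysed. Per the submitters' processing notes, Bowtie2 and HOMER 4.8 and build GRCm38 were used; the peak caller's threshold and the use of input are not stated in any source used here. The deposited lists hold positions and a score, which is constant in each list and was not used. Of all peaks, 141 on unplaced sequences were left out of locations. Depth is unknown, so no counting interval is given.

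Genes came from RefSeq (GRCm38.p6; 49943 genes, 21887 protein-coding), and starts from its promoter windows. A peak was placed by its centre, except for genes and overlaps (1 bp). Single values were compared by exact permutation of the 6 libraries (two-sided). Genes, 5 Mb windows and chromosomes were compared by limma 3.58.1 in R 4.3.3 with Benjamini-Hochberg adjustment. The pseudocount of 0.5 applied to genes and windows. The limma fit of genes was tested on simulated peak numbers, and the exact tests on small sets with known answers. The fits of windows and chromosomes were not simulated. Other steps ran in Python 3.11.15 (pandas 2.3.3, numpy 2.4.6, scipy 1.17.1).

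The 14 gene lists (484 symbols, all matched), the comparison and the tests were chosen with earlier results of these data known. Named were the 10 genes with the largest difference in each direction among fitted genes whose libraries do not overlap, the 10 with the highest lowest value, up to 4 members per list (those with a peak in the most lists), regions of one antibody, and Bmi1, Ring1, Rnf2 and Cdkn2a. Some genes selected by these rules are not reported here. Genes called without 1 library, tRNA and 5S genes and promoter windows with a peak were named after their values were seen. Alternatives were leaving out each library, the replicate number as a block, merging of peaks within 1 kb, peaks shared with another list, lists without tRNA, 5S and immunoglobulin heavy chain peaks, other windows, pseudocounts and filters, and other overlap rules. Replicate numbers were not taken to pair the samples, and whether they do is not known.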

Additional observations from a re-analysis of the deposited data

How the results depend on the processing

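No alternative moved a single comparison of number, width, position or overlap past its threshold, over 91 alternatives with a smallest exact p of 0.1, the least that the design gives. The differences were small and often changed sign, in 23 of the 91. Leaving out 1 library at a time, the difference (BMI1 minus H2AK119ub) ranged from -0.274 to 0.14 in log10 peak number, from -0.275 to 0.14 in log10 covered length, from -1.09 to 0.423 percentage points for wide peaks, from -0.588 to 0.599 in protein-coding genes, from -1.15 to 0.535 in any gene, from -0.992 to 0.227 for the X chromosome, from -0.0859 to 0.307 near starts, from -4.36 to 6.53 kb in distance, and from -7.32 to 3.49 percentage points for own minus other antibody overlap. Without tRNA, 5S and immunoglobulin heavy chain peaks the difference in protein-coding genes was -0.019 percentage points. As numbers of peaks instead of shares, the differences were -733 for protein-coding genes, -0.33 for transcribed pseudogenes and for snRNA genes, -0.67 for miscellaneous RNA and -5.67 for the remaining classes, opposite in sign to the shares. Of 33 alternative limma fits over genes, windows and chromosomes, 1 made calls, so that leaving out a library gave 0 to 4 genes. Merging peaks within 1 kb lowered the number of regions that every H2AK119ub list but none of BMI1 held from 16 to 8. Of 72 alternative counts of list members, 33 moved by more than 1.5 times, mostly where a peak in all 3 lists was asked for, and no list was called on them. Over all protein-coding genes, 973 had a BMI1 peak in all 3 lists and 640 an H2AK119ub peak. With 2 or more lists asked for, the order was the reverse, 1607 with BMI1 and 2107 with H2AK119ub.

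Over genes, the deviations of same-numbered libraries of the 2 antibodies correlated at 0.077, 0.36 and -0.19 for replicates 1, 2 and 3. Between libraries of different numbers these correlations ran from -0.38 to 0.32. Over windows the values were 0.195, 0.38 and -0.026 for the same number, and -0.41 to 0.35 for different numbers. Across windows, BMI1 replicate 1 was closer to H2AK119ub replicate 1 (Pearson r = 0.73) than to BMI1 replicates 2 and 3 (0.67 and 0.68). Whether the numbers pair the samples is not known, and they were not taken to do so. With the replicate number as a block, limma called 0 genes, 0 windows and 0 chromosomes (26 genes at an unadjusted p under 0.05), and the single comparisons had exact p of 0.25 to 1, where 0.25 is the smallest possible. Under the block the differences were -0.040 in log10 peak number and in log10 covered length, -0.21, 0.14, -0.42, -0.36 and 0.082 percentage points for wide peaks, protein-coding genes, any gene, the X chromosome and starts, and 2.33 kb in distance, as without it. The block leaves a difference of means unchanged by construction, so this equality is no check of the differences. With 3 libraries an antibody, no depth and no peak height, small differences could not be detected. The exact tests cannot give a p under 0.1, so at a threshold of 0.05 they could call no difference of any size. In the limma fit of genes, 19 of 2021 had an unadjusted p under 0.05, and 0 were called. Enox2 was among the 19, with a log2 difference of -0.57 (interval -0.99 to -0.15, limma adjusted p = 0.96).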
